A study of Mus musculus with 2 samples.

Results

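The 4 genes described here encode the surface receptors for the cytokines IL-12 and IL-18: Il12rb1 and Il12rb2, the chains of the IL-12 receptor, and Il18r1 and Il18rap, the binding chain and the accessory chain of the IL-18 receptor. They were chosen by symbol and not by a rule on their values, but with earlier results of these data known. All 4 were among the 31053 genes counted in both libraries. The libraries hold live CD45+ leukocytes (negative for propidium iodide) flushed from the stomach mucosa of TxA23 mice, which carry a transgenic T cell receptor and develop autoimmune gastritis, and were made with 10x Genomics 5' single-cell chemistry. The IL-27 library came from 3 females given recombinant IL-27 with its subunits covalently joined (4 ug/mL, 200 uL, 800 ng per pump) and the PBS library from 1 female and 1 male given PBS, in each case through a mini osmotic pump placed under the skin at 3 months of age and kept for 4 weeks. Both groups carry the transgene and had the pump, and no mouse without gastritis was analysed here. The comparison asks how stomach leukocytes of mice given IL-27 differ from those of mice given PBS.

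IL-12 is a heterodimer that joins IL12RB1, a chain shared with the IL-23 receptor, to IL12RB2, and signals through the kinases TYK2 and JAK2 to the transcription factor STAT4. IL-18 belongs to the IL-1 family and joins IL18R1 to IL18RAP, which signal through MYD88 and IRAK kinases to NF-kappaB. Together the cytokines are known for inducing interferon gamma in natural killer (NK) cells and T cells, and IL12RB2 in particular is best known from NK cells and T cells of type 1 immunity.

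In GRCm38 coordinates from the GENCODE annotation, Il12rb1 (ENSMUSG00000000791) lies at chr8:70808449-70821424 on the plus strand and Il12rb2 (ENSMUSG00000018341) at chr6:67291318-67376188 on the minus strand. The IL-18 receptor genes are neighbours on chromosome 1, with Il18r1 (ENSMUSG00000026070) at chr1:40465552-40500854 and Il18rap (ENSMUSG00000026068) at chr1:40515362-40551705, both on the plus strand and 14507 bases apart. Bases upstream of an annotated start are shown, to set beside the NK levels of these genes, for the 3 of the 4 that matched RefSeq's promoter table for GRCm38.p6. Each is written 5' to 3' on the strand of its gene, with motif matches in capitals: a T-box core (TCACAC) and a STAT palindrome (TTCNNNGAA) for Il12rb2, a STAT palindrome for Il18r1, and 2 ETS cores (AGGAAG) for Il18rap.
Il12rb2, chr6:67376189-67376438, minus strand: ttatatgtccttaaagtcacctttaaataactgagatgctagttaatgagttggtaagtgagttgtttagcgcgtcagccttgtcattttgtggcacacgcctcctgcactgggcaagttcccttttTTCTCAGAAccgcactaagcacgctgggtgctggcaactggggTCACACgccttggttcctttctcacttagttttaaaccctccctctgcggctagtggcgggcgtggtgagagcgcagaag
Il18r1, chr1:40465811-40465969, plus strand: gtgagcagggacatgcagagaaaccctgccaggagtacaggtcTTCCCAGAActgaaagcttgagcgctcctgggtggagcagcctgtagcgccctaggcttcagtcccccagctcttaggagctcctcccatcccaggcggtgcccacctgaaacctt
Il18rap, chr1:40515112-40515361, plus strand: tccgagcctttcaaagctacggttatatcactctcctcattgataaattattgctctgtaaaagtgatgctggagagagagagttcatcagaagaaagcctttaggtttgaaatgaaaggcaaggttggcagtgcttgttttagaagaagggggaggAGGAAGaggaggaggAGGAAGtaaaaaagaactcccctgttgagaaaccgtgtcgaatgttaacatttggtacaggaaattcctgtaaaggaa

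These windows shared no single motif among those searched. Both strands were read for the T-box core TCACAC with its reverse complement GTGTGA, the Runx core ACCACA with its reverse complement TGTGGT, the STAT palindrome TTCNNNGAA, and the ETS core AGGAAG with its reverse complement CTTCCT. No match overlapped one of another motif. Among 32851 mouse windows of 250 upstream bases, 12.3% held the T-box core, 14.0% the Runx core, 7.02% the STAT palindrome and 29.5% the ETS core. The Runx core was in none of the 3 windows. The Il18r1 window precedes the last of 3 RefSeq starts, inside the annotated span of the gene, and is cut to the 159 bases that no annotated exon of the gene covers. The printed stretch therefore stops short of that start. A match of letters describes the window and is not a binding site.

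A total of 80121995 UMIs (unique molecular identifiers, the count of captured RNA molecules) came from 20897 barcodes of the IL-27 library, and 43501501 UMIs from 12276 barcodes of the PBS library. Filters left 19972 cells with IL-27, at a median depth of 3053 UMIs, and 11693 with PBS, at 2946 UMIs. By their barcode suffix the IL-27 cells fall into 3 wells and the PBS cells into 2, which the labels do not tie to mice. There is thus 1 library per treatment, no difference between treatments could be tested, and well values are given only to show spread. PBS well 2 stood apart: it held all 3138 Y-linked UMIs of the series (0 in the other 4 wells), and no doublets could be removed from it. Male cells were thus seen in this well only. Sex therefore cannot be told apart from the other traits of PBS well 2, and differs between the treatments. Ratios are therefore also given without PBS well 2 where that moves them. With their suffix included, 117 barcodes occurred in both libraries.

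Cells were assigned to 17 leukocyte subsets by raw UMIs of lineage markers, and a gene's level in a subset is its UMIs scaled to the UMIs of all genes in that subset (CPM), with a 95% Poisson interval that covers counting error only. Levels are not scaled by gene length and are compared within a gene. A summed level cannot tell more cells with the RNA from more RNA in each cell. The NK cells, which needed 2 UMIs of Ncr1, Klrb1c and Klre1 and no Cd3e, numbered 193 after IL-27 and 278 after PBS, 1.49% of all cells. Genes not used in the gate marked them as cytotoxic cells, with 2695 CPM of the granule gene Nkg7, 6867 CPM of granzyme A (Gzma) and 579 CPM of perforin (Prf1). They also held T cell receptor RNA, at 90.2 CPM of Trac against 394 CPM in T cells and 351 CPM of Trbc2 against 1219 CPM. The part of T cells in the NK levels was not tested.

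Il12rb2, the chain that gives the IL-12 receptor its signalling capacity, was concentrated in NK cells. NK cells yielded 160 of its 299 UMIs, 53.5%, and a level of 109 CPM (95% interval 92.4 to 127). In single wells the NK level was 157, 92.0 and 95.9 CPM with IL-27 and 94.5 and 107 CPM with PBS. All 5 wells were above every well of at least 10 cells in any other subset of at least 50 cells. The next subsets were mast cells at 25.3 CPM from 5 UMIs, dendritic cells at 16.5 CPM from 10 UMIs, and T cells with a UMI of Trdc and none of Cd4, Cd8b1 or Foxp3 at 11.3 CPM from 26 UMIs. That gate was built to find gamma-delta T cells, but its wells held 212 to 282 CPM of Trac and 967 to 1223 CPM of Trbc2, alpha-beta receptor genes, so these cells are called Trdc-gated T cells. Trdc was at 504 to 753 CPM in their wells, and T cells with Trdc beside a marker of another T subset were left among the remaining T cells or regulatory T cells, with 50.6 to 105 CPM of Trdc in the wells of the remaining T cells. The 1902 CD8 T cells had 4 Il12rb2 UMIs and the 2515 CD4 T cells that are not regulatory (CD4 conventional) had 1. Regulatory T cells had 0, which in 788 cells allows a level of up to 1.21 CPM, the upper end of the 95% interval.

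Il12rb1, the shared chain of the IL-12 and IL-23 receptors, was spread more evenly and at low counts. Its NK level of 19.0 CPM (12.6 to 27.5) rested on 28 UMIs, with 14.3, 17.5 and 20.5 CPM in the IL-27 wells and 25.8 and 18.3 CPM in the PBS wells. Regulatory T cells had 15.8 CPM, Trdc-gated T cells 13.5 CPM, the remaining T cells, which met no T subset gate, 8.45 CPM, other CD4 T cells 6.59 CPM and CD8 T cells 6.01 CPM. The order of these subsets was not resolved, since each overlapped its neighbour over the wells. Of all Il12rb1 UMIs, 70.7% came from T cells and 5.33% from NK cells. A further 8 UMIs fell in only 42 type 2 innate lymphoid cells, which gave 39.9 CPM with a wide interval of 17.2 to 78.6.

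Il18r1, the IL-18 binding chain, was highest in NK cells and next in T cells. The NK level was 279 CPM (253 to 308; 412 UMIs), with 247, 302 and 308 CPM in the IL-27 wells and 301 and 268 CPM in the PBS wells. Regulatory T cells followed with 81.8 CPM, at 49.5, 105 and 87.7 CPM in the IL-27 wells and 80.6 and 93.5 CPM in the PBS wells. The NK wells lay entirely above the regulatory T cell wells. Among T cells the order went on through Trdc-gated T cells (67.3 CPM), CD8 T cells (40.2 CPM), CD4 T cells (33.8 CPM) and the remaining T cells (29.0 CPM), each overlapping the next over the wells. T cells, which were far more numerous, held 71.1% of all Il18r1 UMIs and NK cells 16.9%. B cells were near the floor at 0.444 CPM with Fcer2a, a receptor of mature B cells, and 0.522 CPM without it, and macrophages and neutrophils had 0 UMIs. Over all B cells this floor was uneven, at 1.59 CPM in PBS well 2 and 0 to 0.344 CPM in the other wells.

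Il18rap, the accessory chain without which IL-18 does not signal, was also highest in NK cells. They held 404 of its 1074 UMIs, 37.6%, at 274 CPM (248 to 302), with 295, 342 and 253 CPM in the IL-27 wells and 318 and 233 CPM in the PBS wells. Neutrophils came next with 147 CPM (82.2 to 242) from 15 UMIs in 69 cells, and the 2 wells with at least 10 neutrophils were at 102 and 164 CPM, below every NK well. Of the 3 smaller wells, IL-27 well 2, with 4 UMIs in 9 cells, was at 264 CPM, within the range of the NK wells. No neutrophil UMI of Il18r1 was seen beside them, which allows up to 36.1 CPM of the binding chain, the upper end of the 95% interval. In T cells the accessory chain was low, at 20.4 CPM in Trdc-gated T cells, 18.1 CPM in regulatory T cells, 17.6 CPM in CD8 T cells, 7.22 CPM in the remaining T cells and 6.78 CPM in CD4 T cells.

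**Figure D1:**
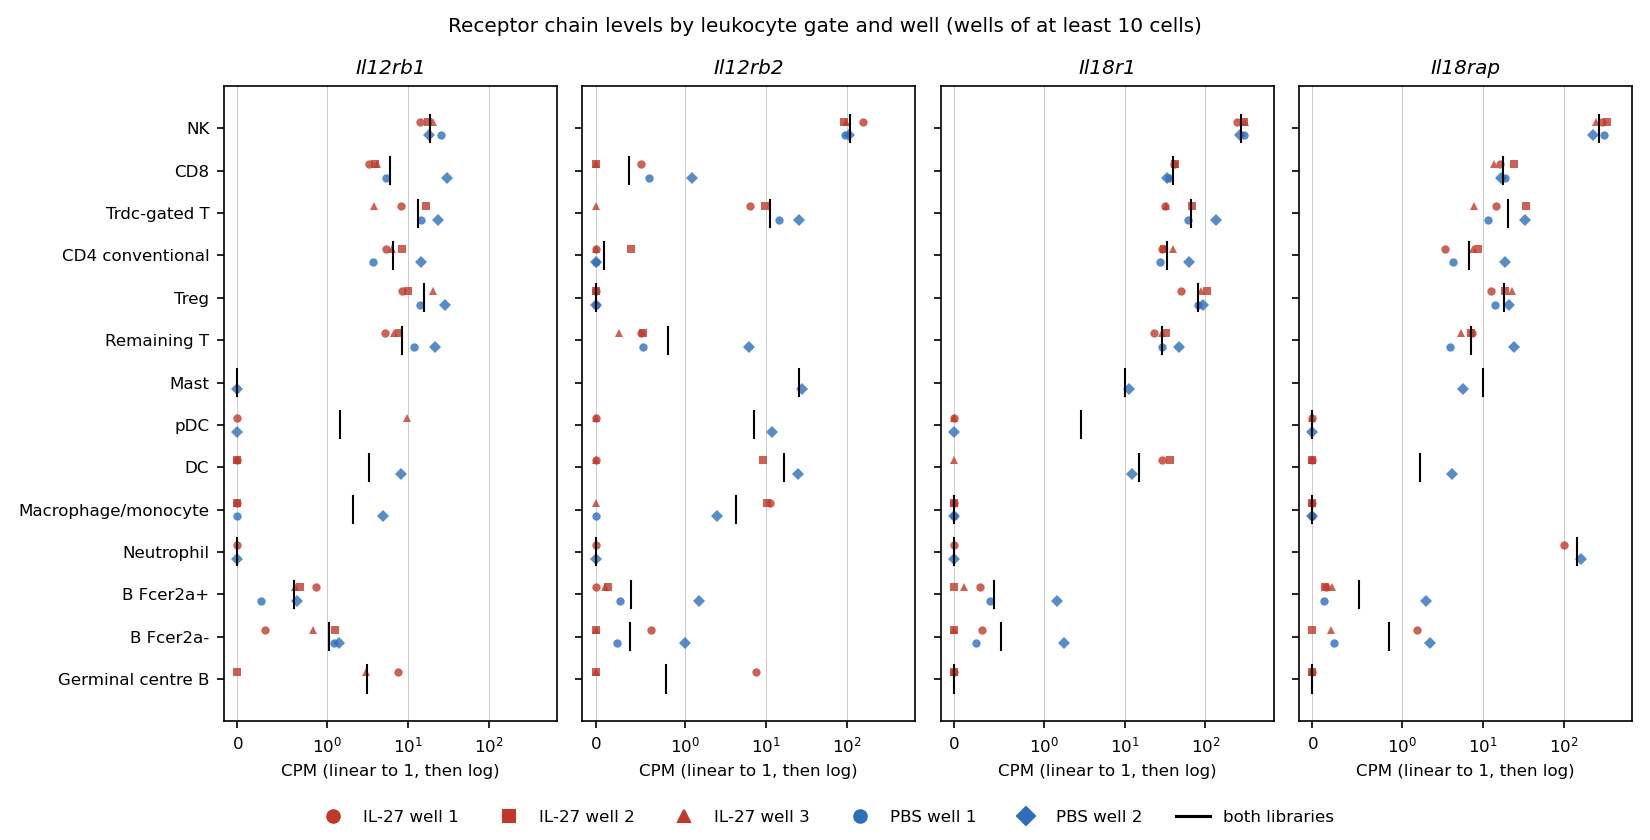
Level of each receptor chain in CPM (x axis, linear to 1 and logarithmic above) in each gated subset of at least 50 cells (y axis). Points are single wells of at least 10 cells, coloured by library, and the black bar is the level over both libraries. For Il12rb2, Il18r1 and Il18rap the NK wells lie above the drawn wells of every other subset, at 109, 279 and 274 CPM over both libraries, while for Il12rb1 the NK wells overlap those of T cell subsets around 19.0 CPM.

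Shares of cells with a UMI were also high in NK cells. With each cell thinned to 1000 UMIs, 25.3% of 443 NK cells had a UMI of Il18r1 (50.1% unthinned), 24.6% one of Il18rap (52.7%), 10.4% one of Il12rb2 (26.1%) and 1.58% one of Il12rb1 (5.52%). B cells, which should lack these receptors on most cells and had a median depth of 2807 UMIs against 2803 in NK cells, gave 0.0471% for Il18r1, 0.0733% for Il18rap, 0.0262% for Il12rb2 and 0.0942% for Il12rb1 over 19112 thinned cells. All 4 NK shares stood above this background level. It pools the wells, and the B cell level of each chain was highest in PBS well 2. There Il18rap was at 2.07 CPM (0.0888 to 0.589 CPM in the other wells) and Il12rb2 at 1.27 CPM (0.0668 to 0.294 CPM). Il12rb1 differed less, at 0.955 CPM (0.602 to 0.888 CPM). The part of carried-over RNA in the levels of PBS well 2 was not tested. In T cells the share was 4.05% for Il18r1, and in regulatory T cells it was 9.61% for Il18r1 and 2.21% for Il18rap. Of 55 thinned neutrophils, 8 had a UMI of Il18rap, 14.5%.

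Chains of 1 receptor were found together in NK cells about as often as their separate shares give. At 1000 UMIs per cell, 32 NK cells had both IL-18 receptor chains, against 27.6 from the product of the shares. Il12rb2 was found with Il18r1 in 16 cells (11.6 from the product) and with Il18rap in 13 cells (11.3). Both IL-12 receptor chains were seen in 1 cell, against 0.727. At this depth most RNA of either chain is missed in most cells, so a cell without a UMI is not a cell without the receptor.

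NK cells were not uniform in the IL-18 receptor. In a split chosen after the values were seen, the 155 NK cells with a UMI of Il7r, the IL-7 receptor chain found on helper-type innate lymphoid and immature NK cells, had 356 CPM of Il18r1 and 216 CPM of Il18rap. The 316 NK cells without it had 237 CPM of Il18r1 and 306 CPM of Il18rap. The binding chain was thus higher and the accessory chain lower in the Il7r-positive cells, and both differences had the same direction in each of the 5 wells. These are the wells in which the split was chosen, so their agreement is not an independent check. NK cells with a UMI of Cxcr6, a chemokine receptor of tissue-resident lymphocytes, had 152 CPM of Il18rap against 335 CPM in those without it. Of the 111 Cxcr6-positive NK cells, 68 were in PBS well 2, and Il18rap was lower in the Cxcr6-positive cells of 4 of the 5 wells. Splits of NK cells by Cxcr3, Tbx21, Ifng, Il1rl1, Ikzf2, Eomes and Itga1 were also made and are not given.

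The IL-18 receptor genes lie at the end of a cluster of IL-1 receptor family genes, and their neighbours were highest in other subsets. Il1rl1, which encodes the IL-33 receptor and ends 136 bases before Il18r1 begins, was at 583 CPM in 10 basophils, 375 CPM in mast cells, 179 CPM in type 2 innate lymphoid cells and 26.9 CPM in regulatory T cells. In NK cells it was at 0.678 CPM. Il1r2, the decoy receptor for IL-1 at the other end of the cluster, was at 245 CPM in neutrophils and 68.0 CPM in regulatory T cells. Regulatory T cells therefore held RNA of Il1r2, Il1rl1, Il18r1 and Il18rap, whereas NK cells held mainly that of Il18r1 and Il18rap. Sigirr, a negative regulator of this family that lies elsewhere, was at 101 CPM in regulatory T cells and 49.5 CPM in NK cells.

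**Figure D2:**
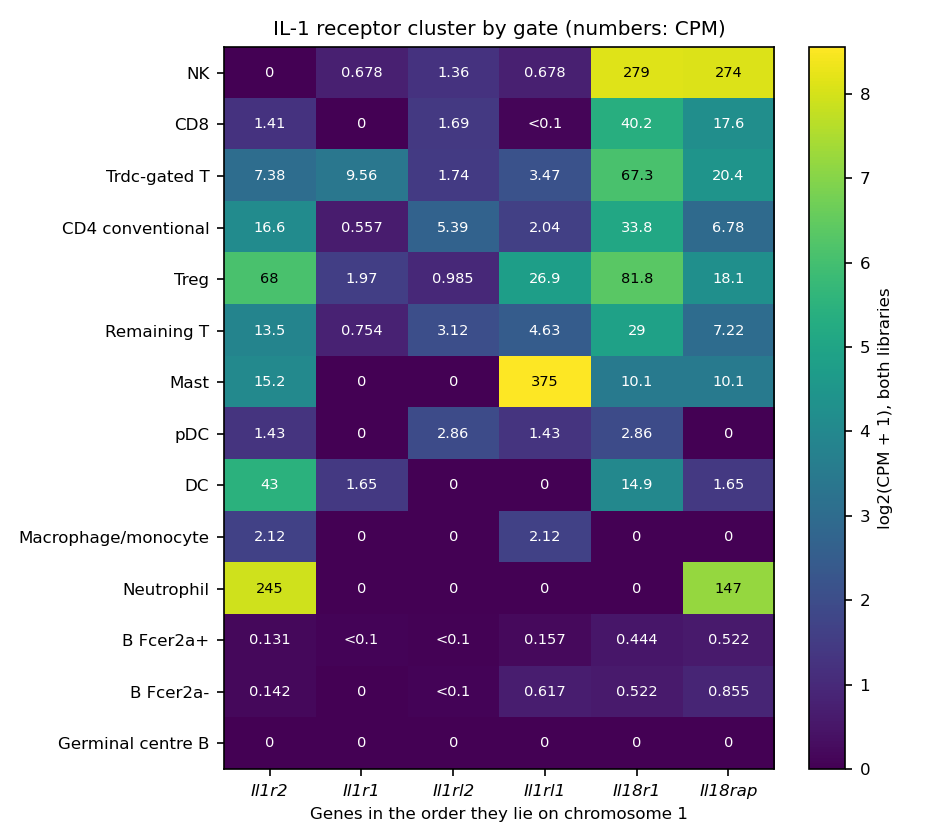
Level over both libraries of the 6 IL-1 receptor family genes of the chromosome 1 cluster (x axis, in genomic order) in each subset of at least 50 cells (y axis), with colour for log2(CPM + 1) and the CPM printed in each square. Among these subsets Il1rl1 is highest in mast cells at 375 CPM, and the adjacent Il18r1 is highest in NK cells at 279 CPM.

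The 4 patterns of level over the 14 subsets of at least 50 cells were unlike each other apart from a partial match of Il12rb1 and Il18r1. Over the subsets, which share their libraries and differ in size, Pearson's r of log2(CPM + 1) was 0.81 for Il12rb1 with Il18r1, 0.60 for Il18r1 with Il18rap, 0.40 for Il12rb2 with Il18r1, 0.35 for Il12rb1 with Il18rap, 0.25 for Il12rb2 with Il18rap and 0.17 for Il12rb1 with Il12rb2. The pair with the highest r thus came from different receptors. For Il18rap the highest of its 3 values was with Il18r1, the other chain of its receptor, and for Il12rb1 the lowest was with Il12rb2. Small gates count as much as large ones in r, and some of their levels rest on few UMIs. Il12rb2 had 5 UMIs in mast cells and 10 in dendritic cells, where Il12rb1 had 0 and 2. The r values and the like genes that follow rest partly on such counts. Among 9028 genes, those most like Il18r1 were AW112010 (0.95), Txk, a T and NK cell kinase (0.95), Il2rb, the shared IL-2 and IL-15 receptor chain (0.94), Prrt1 (0.93) and Cd96, an adhesion receptor of T and NK cells (0.92). Those most like Il12rb2 were Rbpms (0.93), Chpf2 (0.87), Clnk, an adaptor of immune receptors (0.87), Cdh1, E-cadherin (0.85), and S100a1 (0.84). Those most like Il12rb1 were C1qtnf6 (0.95), Cd226, an activating receptor (0.93), Socs1, an inhibitor of JAK kinases (0.93), Sh2d1a, the adaptor SAP (0.92), and Slc12a7 (0.91). Those most like Il18rap were Slc20a1 (0.90), Stxbp5 (0.89), Atp11b (0.89), D16Ertd472e (0.89) and Lasp1 (0.89).

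In NK cells none of the 4 chains differed between the IL-27 and PBS libraries by 1.5-fold. Il18r1 was at 284 CPM in IL-27 NK cells and 277 CPM in PBS NK cells (ratio 1.03, counting interval 0.838 to 1.26). Il12rb2 was at 116 CPM in IL-27 and 103 CPM in PBS NK cells (ratio 1.12, 0.810 to 1.56). Il18rap was at 303 CPM in IL-27 and 255 CPM in PBS NK cells (ratio 1.19, 0.969 to 1.45). The counting intervals of the IL-18 receptor chains lay within 1.5-fold, and that of Il12rb2 reached just past it. Il12rb1 had 17.1 CPM in IL-27 and 20.2 CPM in PBS NK cells (ratio 0.846, 0.349 to 1.93), from only 10 IL-27 and 18 PBS UMIs, so a difference of 1.5-fold either way was not detectable at this depth. Its log2 ratio was -0.23 with 1 CPM added to each level, as in all log2 ratios given here. Over 7361 genes measured in NK cells (at least 20 UMIs in both libraries together and 5 CPM in the higher library), 7.87% were at least 1.5-fold higher and 10.7% at least 1.5-fold lower in IL-27, so 0 of 4 members is near this background. The thinned shares were 25.1% of 183 IL-27 and 25.4% of 260 PBS NK cells for Il18r1, 25.7% of IL-27 and 23.8% of PBS NK cells for Il18rap, 11.5% of IL-27 and 9.62% of PBS NK cells for Il12rb2, and 1.09% of IL-27 and 1.92% of PBS NK cells for Il12rb1. The Il12rb1 shares rest on 2 IL-27 and 5 PBS cells. Of the 278 PBS NK cells, 190 were in PBS well 2, which stood apart in some genes picked after their values were seen. Gzma was at 4622 CPM there (8169 to 9408 CPM in the other wells) and Itga1 at 169 CPM (9.51 to 27.4 CPM). Tbx21, at 239 CPM, lay within the other wells (210 to 338 CPM). Without PBS well 2 the log2 ratio of each chain was also within 1.5-fold. The part of this composition in the NK ratios was not tested.

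Downstream of the receptors, most of the signalling genes listed were within 1.5-fold in NK cells. Of 18 kinases, adaptors, transcription factors and inhibitors of these pathways, 18 were measured, 0 were higher and 2 were lower in IL-27, with a median log2 ratio of 0.0047 against -0.01 over all measured genes. These counts are near the background of 7.87% of genes higher and 10.7% lower. The lower ones were Cish, an inhibitor of cytokine receptors, at 35.9 CPM in IL-27 and 101 CPM in PBS NK cells (log2 ratio -1.47), and Socs1 at 125 CPM in IL-27 and 215 CPM in PBS NK cells (-0.78). With PBS well 2 left out, Cish was at -0.92 and Socs1 at -0.27 on the log2 scale, the second short of 1.5-fold. Stat4, the transcription factor that IL-12 activates, was at 285, 276 and 288 CPM in the IL-27 wells and 202 and 207 CPM in the PBS wells. Its wells did not overlap between the libraries, as for 8.99% of genes measured in NK cells in this direction, and its log2 ratio of 0.45 was short of 1.5-fold.

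Of 18 targets and regulators of IL-12 and IL-18 signalling, 15 were measured in NK cells, 1 was higher and 4 were lower in IL-27, with a median log2 ratio of 0.19 against -0.01 over all measured genes, of which 7.87% were higher and 10.7% lower. The higher one was Eomes, a transcription factor of NK cell maturation, at 418, 552 and 568 CPM in the IL-27 wells and 344 and 279 CPM in the PBS wells (log2 ratio 0.78). Its wells did not overlap between the libraries, but the log2 ratio was 0.56 without PBS well 2, short of 1.5-fold. The lower ones were the chemokine genes Xcl1 (log2 ratio -1.52) and Ccl4 (-1.003), the chemokine receptor gene Cxcr3 (-0.91) and Ifng, the interferon gamma gene (-0.67). Ifng was at 28.5, 43.8 and 27.4 CPM in the IL-27 wells and 38.7 and 60.9 CPM in the PBS wells, which overlapped. Xcl1 was at 247, 355 and 151 CPM in the IL-27 wells, against 288 and 927 CPM in the PBS wells, so most of its difference lay in PBS well 2. Leaving that well out gave log2 ratios of -0.12 for Xcl1, -0.17 for Ifng and -0.48 for Cxcr3, all short of 1.5-fold, and -0.81 for Ccl4. That of Ifng was also short of it without IL-27 well 1 (-0.55) or IL-27 well 3 (-0.58). In the same wells, macrophage RNA (C1qa, C1qb, Apoe and Lyz2 summed) was 14.3 to 27.4 CPM in IL-27 NK cells and 4.30 and 110 CPM in PBS NK cells, and B cell RNA (6 genes summed) was 112 to 166 CPM throughout. Of the macrophage list 2 of 4 genes were measured and both were lower in IL-27, of the B cell list 1 of 6 was measured and 0 passed 1.5-fold, and of 9 gastric epithelial genes 1 was measured and 0 passed. Of 15 dissociation stress genes, 11 were measured, 0 were higher and 3 were lower in IL-27, with a median log2 ratio of -0.30. The part of macrophage RNA and of stress genes in these differences was not tested.

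**Figure D3:**
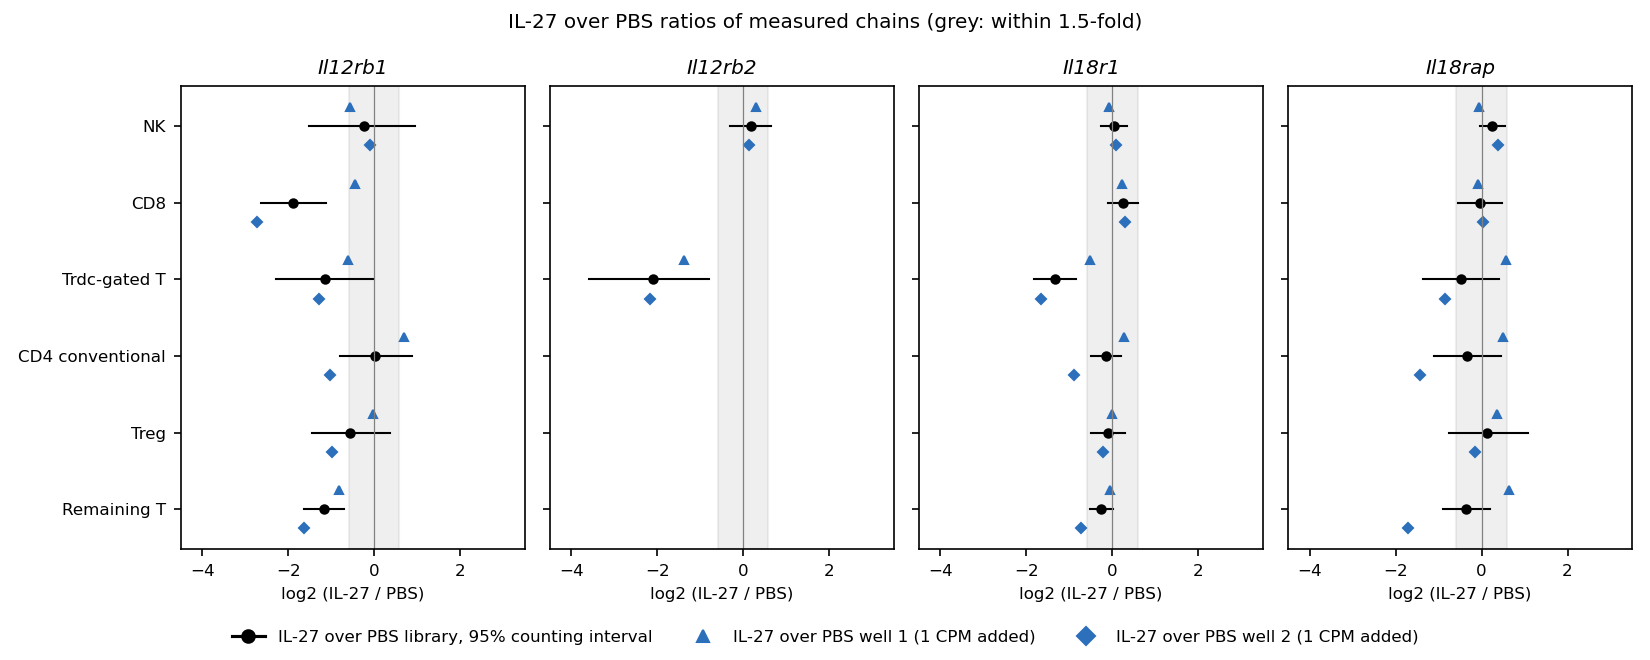
Ratio of the IL-27 over the PBS library (x axis, log2) for each measured receptor chain, by subset (y axis). Black points are the library ratio (no CPM added) with its 95% counting interval, blue triangles and diamonds the ratio against PBS well 1 or PBS well 2 alone (with 1 CPM added), and the grey band lies within 1.5-fold. All NK points lie in the band, whereas in CD8 T cells the Il12rb1 point, at 3.68 CPM with IL-27 against 13.6 CPM with PBS, lies far to the left, and the ratio against PBS well 1 alone lies within the band.

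In T cells as a whole, Il12rb1 was lower in the IL-27 library. It was at 4.99, 7.60 and 7.13 CPM in the IL-27 wells and 8.97 and 23.3 CPM in the PBS wells. Every IL-27 well was below both PBS wells, and PBS well 2 was the highest by far. Over the libraries the level was 6.36 CPM in IL-27 and 13.3 CPM in PBS T cells, from 213 IL-27 and 158 PBS UMIs (ratio 0.477, counting interval 0.387 to 0.590; log2 ratio -0.96). The log2 ratio was -0.44 without PBS well 2, short of 1.5-fold, and -1.72 without PBS well 1. It was -0.87 over T cells with no UMI of an NK marker gene, an alternative chosen after seeing the data. In all T cells 4% of measured genes were lower by 1.5-fold and 0.418% higher, and 10.9% had every IL-27 well below both PBS wells. Of the 3 members measured in all T cells, 1 was lower and 0 were higher.

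The IL-18 receptor chains did not pass 1.5-fold in all T cells. Il18r1 was at 31.2, 40.4 and 39.7 CPM in the IL-27 wells and 34.3 and 65.1 CPM in the PBS wells (log2 ratio -0.26; 0.08 without PBS well 2 and -0.82 without PBS well 1). Il18rap was at 9.47, 13.2 and 9.31 CPM in the IL-27 wells and 7.88 and 22.4 CPM in the PBS wells (-0.22; 0.37 without PBS well 2 and -1.03 without PBS well 1). PBS well 2 was above all others for both genes, and the IL-27 wells lay on both sides of PBS well 1 for Il18r1 and above it for Il18rap. Il12rb2, with 16 UMIs in IL-27 and 30 UMIs in PBS T cells, was too low to be measured.

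PBS well 2 differed from the other wells in further genes of its T cells, some of them named after their values were seen. Cxcr6 was at 535 CPM there and 13.2 to 30.1 CPM in the other 4 wells, Ccl4 was at 1573 CPM, and macrophage RNA summed to 238 CPM against 5.48 to 25.6 CPM elsewhere, with 4 of 4 of its genes lower in the IL-27 library. Gastric epithelial RNA summed to 85.6 CPM there and 1.98 to 30.3 CPM in the other wells (2 of 9 genes measured, both lower), whereas of 15 dissociation stress genes 11 were measured, 0 were higher and 2 lower. Of the B cell list 2 of 6 genes were measured and 1 was lower. The 16 measured targets and regulators of IL-12 and IL-18 signalling summed with the rest of their list to 15530 CPM in T cells of that well, against 1093 to 1595 CPM in the other 4 wells. Of these 16 genes, 0 were higher and 8 lower in the IL-27 library, with a median log2 ratio of -0.59 against -0.03 over all genes measured in T cells, of which 0.418% were higher and 4% lower. The 18 signalling genes held 0 higher and 0 lower, with a median of -0.06. The part of PBS well 2's cell composition in the T cell differences was not tested, and that of sex cannot be told apart from it.

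By T cell subset, the lower Il12rb1 of the IL-27 library was least dependent on PBS well 2 in the remaining T cells. In these 2831 IL-27 and 976 PBS cells, Il12rb1 was at 5.25, 7.67 and 6.67 CPM in the IL-27 wells and 12.01 and 21.6 CPM in the PBS wells. The groups did not overlap, and the log2 ratio was -1.05 with both PBS wells and -0.83 without PBS well 2. In this gate 3.75% of genes were lower and 0.995% higher by 1.5-fold, 10.5% had all IL-27 wells below, and 1 of the 3 measured members was lower. The log2 ratio of Il18r1 was -0.25 (27.5 CPM in IL-27 and 32.9 CPM in PBS cells), and passed 1.5-fold without PBS well 1 (-0.74). That of Il18rap was -0.32 (6.70 CPM in IL-27 and 8.62 CPM in PBS cells), with no set direction, since it was 0.65 without PBS well 2 and -1.71 without PBS well 1.

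CD8 T cells had the Il12rb1 ratio farthest from 1 among the gates, and its size rested on 1 well. The wells were at 3.28, 3.92 and 4.21 CPM in IL-27 and 5.37 and 30.2 CPM in PBS, from 30 IL-27 and 34 PBS UMIs. Every IL-27 well was below both PBS wells, but PBS well 1 was close to them and PBS well 2 was far above. The log2 ratio was -1.64 with both PBS wells, -0.44 without PBS well 2, short of 1.5-fold, and -2.74 without PBS well 1. PBS well 2 held 190 of the 469 PBS cells of the gate, with 1126 CPM of Cxcr6 (17.7 to 50.9 CPM in the other wells), 481 CPM of Eomes (98.5 to 149 CPM in the other wells) and 196 CPM of Ifng (2.27 to 23.5 CPM in the other wells). In this gate 12.4% of genes were lower and 3.1% higher by 1.5-fold in the IL-27 library, 15.3% had all IL-27 wells below, and 1 of 3 measured members was lower. That member, Il12rb1, reached the 5 CPM minimum only in the PBS library (3.68 CPM in IL-27 and 13.6 CPM in PBS cells).

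The IL-18 receptor chains of CD8 T cells were within 1.5-fold between the libraries. Il18r1 was at 41.4, 42.6 and 41.6 CPM in the IL-27 wells and 35.8 and 33.8 CPM in the PBS wells. Its IL-27 wells were all above, as for 7.96% of genes, by a log2 ratio of 0.24 (ratio 1.19, counting interval 0.937 to 1.52). Il18rap was at 16.2, 24.0 and 13.6 CPM in the IL-27 wells and 18.5 and 16.9 CPM in the PBS wells. These wells overlapped, and the log2 ratio was -0.04. For both chains it changed by less than 0.1 with either PBS well left out. Macrophage RNA in the same cells summed to 1.40 to 10.8 CPM in the IL-27 wells and 4.18 and 85.8 CPM in the PBS wells.

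Trdc-gated T cells were the subset with most members past 1.5-fold: 3 of 4 were lower in the IL-27 library, where 12.1% of all measured genes were lower and 9.49% higher. Of these, Il12rb2 reached the 5 CPM minimum only in the PBS library (4.96 CPM in IL-27 and 21.4 CPM in PBS cells). Il18r1 was at 31.3, 68.0 and 32.7 CPM in the IL-27 wells and 61.1 and 136 CPM in the PBS wells (60 IL-27 and 95 PBS UMIs). The wells overlapped, since IL-27 well 2 was above PBS well 1. The log2 ratio of -1.31 became -0.51 without PBS well 2, short of 1.5-fold. Il12rb2 was at 6.25, 9.71 and 0 CPM in the IL-27 wells and 14.5 and 25.6 CPM in the PBS wells, from 7 IL-27 and 19 PBS UMIs. Its wells did not overlap, as for 12.4% of genes in this direction, and its log2 ratio was -1.91 with and -1.38 without PBS well 2.

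Il12rb1 in the same cells was at 8.33, 17.0 and 3.84 CPM in the IL-27 wells and 14.5 and 23.8 CPM in the PBS wells (log2 ratio -1.06, and -0.61 without PBS well 2). The wells overlapped, since IL-27 well 2 was above PBS well 1. Il18rap, at 17.7 CPM in IL-27 and 24.7 CPM in PBS cells, was within 1.5-fold with all wells (-0.46) and of opposite sign without PBS well 2 (0.57). Its log2 ratio was -0.86 without PBS well 1 and -1.10 without IL-27 well 2. PBS well 2 stood apart here too, with 1209 CPM of Fcer1g, a signalling chain of innate receptors, and 64.1 CPM of the cytokine gene Il17a. PBS well 1 was also unlike the IL-27 wells. It had 256 CPM of Fcer1g, against 1.92 to 94.7 CPM in the IL-27 wells. Gzma was at 343 CPM there, against 8.33 to 65.3 CPM in the IL-27 wells and 3.66 CPM in PBS well 2. The part of such RNA in the ratios of this gate, with or without PBS well 2, was not tested. Il23r, which pairs with Il12rb1 in the IL-23 receptor, was at 4.96 CPM in IL-27 and 13.5 CPM in PBS Trdc-gated cells from 19 UMIs, too few to be measured, and had 0 UMIs in NK cells.

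**Figure D4:**
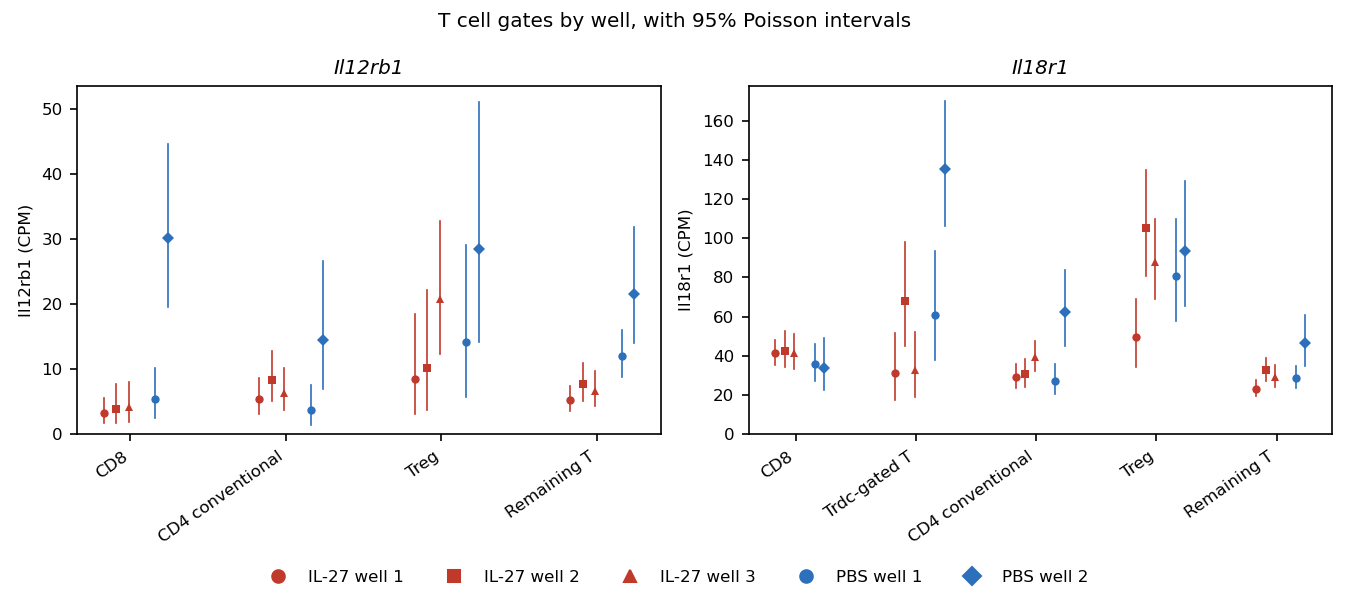
Level (y axis, CPM, from 0) of Il12rb1 (left panel) and Il18r1 (right panel) in T cell gates (x axis) for each well, with 95% Poisson intervals for counting error; IL-27 wells are drawn left of PBS wells. In the remaining T cells Il12rb1 is at 5.25 to 7.67 CPM in the IL-27 wells and 12.01 and 21.6 CPM in the PBS wells, and for Il12rb1 PBS well 2 is the highest well in all 4 gates drawn.

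In CD4 T cells and in regulatory T cells no chain passed 1.5-fold with all wells included. Among the 1908 IL-27 and 607 PBS CD4 T cells, Il12rb1 was at 5.36, 8.36 and 6.36 CPM in the IL-27 wells and 3.68 and 14.5 CPM in the PBS wells (log2 ratio 0.01). The IL-27 wells lay between the PBS wells, so the ratio had no set direction and was 0.70 without PBS well 2 and -1.02 without PBS well 1. Il18r1 was at 29.1, 30.6 and 39.3 CPM in the IL-27 wells and 27.3 and 62.2 CPM in the PBS wells (-0.15; 0.26 without PBS well 2 and -0.90 without PBS well 1). Il18rap was at 6.36 CPM in IL-27 and 8.10 CPM in PBS CD4 T cells (-0.31; 0.50 without PBS well 2 and -1.43 without PBS well 1). PBS well 2 was again the highest well for each chain, and macrophage RNA summed to 857 CPM in its CD4 T cells and 2.34 to 30.3 CPM in the other 4 wells. Past 1.5-fold were 0 of 3 members, beside 2.56% of genes higher and 2.92% lower.

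In regulatory T cells Il18r1 was at 80.0 CPM in IL-27 and 86.2 CPM in PBS cells (-0.11), Il18rap at 18.5 CPM in IL-27 and 17.0 CPM in PBS cells (0.11) and Il12rb1 at 13.9 CPM in IL-27 and 20.4 CPM in PBS cells (-0.53). That of Il12rb1 was -0.02 without PBS well 2, -0.99 without PBS well 1 and -1.06 without IL-27 well 3. Again 0 of 3 passed, beside 6.78% higher and 7.25% lower.

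Among the ligand genes, Il12a RNA was found in B cells, and RNA of Il12b and Il18 at low counts or low levels. Il12b, the IL-12 subunit shared with IL-23, was found in dendritic cells, at 0, 0 and 47.4 CPM in the IL-27 wells and 0 and 351 CPM in the PBS wells. Of its UMIs there, 6 were in IL-27 well 3 and 85 in PBS well 2, and the gate holds 36 IL-27 and 30 PBS cells. Il12a, the other subunit, was in B cells at 48.7 CPM in IL-27 and 45.7 CPM in PBS cells, from 1775 IL-27 and 1105 PBS UMIs. Il18 was at 26.8 CPM in IL-27 and 22.2 CPM in PBS macrophages from 23 UMIs. Its level in B cells was 4.28 CPM in IL-27 and 3.97 CPM in PBS cells, from 156 IL-27 and 96 PBS UMIs. Il23a, the IL-23 subunit, had 0 UMIs in every subset. Stomach epithelium, where IL-18 is also made, is not among the sorted cells.

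Ebi3, the subunit that IL-27 shares with IL-35, was past 1.5-fold higher in the IL-27 library in regulatory T cells and in other CD4 T cells, and past 1.5-fold lower in macrophages. In regulatory T cells it was at 62.3, 64.4 and 68.1 CPM in the IL-27 wells and 42.3 and 28.6 CPM in the PBS wells. The wells did not overlap, as for 10% of genes in this direction. The log2 ratio was 0.83, and 0.61 without PBS well 2, just past 1.5-fold. Of genes measured in regulatory T cells, 6.78% were higher by 1.5-fold. In other CD4 T cells it was at 13.1, 15.1 and 20.9 CPM in the IL-27 wells and 6.83 and 5.79 CPM in the PBS wells (1.19, and 1.14 without PBS well 2), from 133 IL-27 and 17 PBS UMIs. In that gate 2.56% of measured genes were higher by 1.5-fold. In macrophages it was at 22.5, 41.0 and 29.2 CPM in the IL-27 wells and 52.7 and 92.2 CPM in the PBS wells (-1.51, and -0.84 without PBS well 2), from 13 IL-27 and 42 PBS UMIs. These wells did not overlap either, as for 9.9% of genes in this direction, and 10.3% of genes measured in macrophages were lower by 1.5-fold. B cells had Ebi3 at 16.2 CPM in IL-27 and 17.4 CPM in PBS cells (-0.09), from 590 IL-27 and 420 PBS UMIs.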

How the data were processed

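Raw UMI counts per gene and barcode were deposited by the authors as 1 matrix per treatment, made with Cell Ranger 3.0.0 on mm10 per the submitters' processing notes (the matrix header names software 3.1.0). The values are counts as deposited, with no normalisation, and 0 per-sample columns were left unused. Ambient RNA was not removed.

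Cells with fewer than 200 genes or more than 10% mitochondrial UMIs were dropped (318 IL-27 and 483 PBS barcodes). Doublets called by Scrublet (scanpy 1.11.5) were removed per well (607 IL-27 and 100 PBS cells), except in PBS well 2, where it marked 0.0183%, under the 0.5% at which a call was used. Subsets were gated on raw marker UMIs; cells of several gates (261) or none (1267) were set aside. UMIs were summed per subset and scaled to CPM over all genes. Ratios with an interval are of CPM as they stand, log2 ratios add 1 CPM to each level, and a difference counts from 1.5-fold. A gene was measured with at least 20 UMIs in both libraries together and 5 CPM in the higher. Intervals are 95% exact Poisson, binomial or conditional ones and cover counting error only. With 1 library per treatment no test was run.

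The members, the gene lists and the gates were chosen with earlier results of these data known. The text names the 4 members, any gene of the lists (ligands, partner chain, kinases, transducers and their inhibitors, targets and regulators, IL-1 receptor family, dissociation stress, RNA of other cell types), and for each member the 5 genes with the highest Pearson r over subsets. Splits of gates, T cells without NK marker UMIs and the further genes of PBS well 2 were chosen after the values were seen. CD4 and CD8 T cells were each taken whole after the values were seen, and a further division of them is not reported here. Gene positions come from GENCODE, which held 30934 of the 31053 gene IDs, and promoter bases from RefSeq. The calculations were tested on simulated data. Python 3.11.15, numpy 2.4.6, scipy 1.17.1 and pandas 2.3.3 were used.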

Additional observations from a re-analysis of the deposited data

How the results depend on the processing

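NK cells had the highest level of Il12rb1, Il12rb2, Il18r1 and Il18rap among subsets of at least 50 cells in 10 of 10 settings tried. These settings reuse the same cells, and for Il12rb1 they leave the order unresolved. Its wells were at 14.3 to 25.8 CPM in NK cells and 8.49 to 28.6 CPM in regulatory T cells. In the PBS library alone it was at 20.2 CPM in NK cells and 20.4 CPM in regulatory T cells. The NK level of Il12rb2 was 138.5 CPM with antigen receptor, mitochondrial, ribosomal protein and haemoglobin genes left out of the total and 128.7 CPM in cells thinned to 1000 UMIs. That of Il18r1 was 356.7 CPM and 329.6 CPM in these settings and 252.2 CPM with the stricter cell filter (500 genes, 5% mitochondrial UMIs), and that of Il18rap 349.8 and 304.7 CPM. The cause was not tested. Leaving out each well in turn gave NK levels of 17.72 to 19.78 CPM for Il12rb1, 100.5 to 111.6 for Il12rb2, 275.3 to 288.7 for Il18r1 and 261.6 to 307.1 for Il18rap. It gave NK log2 ratios of -0.56 to -0.09 for Il12rb1, -0.14 to 0.35 for Il12rb2, -0.08 to 0.14 for Il18r1 and -0.070 to 0.38 for Il18rap. In all T cells they were -1.72 to -0.44 for Il12rb1, -0.82 to 0.080 for Il18r1 and -1.03 to 0.37 for Il18rap. Of 23 log2 ratios, 6 moved out of their counting interval in thinned cells, 2 with 5 CPM added, 9 without PBS well 1 and 10 without PBS well 2; the stricter cell filter, stricter gates, no doublet removal, the reduced total and each IL-27 well left out moved 0 so far, and those that crossed 1.5-fold without a well are given beside their values. In thinned cells Il18rap in NK cells was at -0.078 and Il18r1 in all T cells at -0.42, and with 5 CPM added Il12rb1 in all T cells was at -0.69. Genes at least 1.5-fold higher in IL-27 NK cells numbered 579 (593 to 806 with a well left out), 1876 with no minimum and 56 with at least 100 UMIs and 20 CPM. Lower ones numbered 789 (476 to 996), 496 in thinned cells, 2634 with no minimum and 106 with the higher one. In all T cells 39 were higher (32 to 472), 88 with the reduced total, 213 thinned, 10 with 5 CPM added, 114 with no minimum and 8 with the higher one, and 373 were lower (55 to 1670), 594 thinned, 743 with no minimum and 160 with the higher one. No paired analysis was possible because each group has 1 library and no test was run.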

Other observations

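Cells outside the gates also held the receptor chains. In the 1267 cells that met no gate, Il18r1 was at 36.6 CPM in the IL-27 library and 50.8 CPM in the PBS library, Il18rap at 16.0 CPM with IL-27 and 23.7 CPM with PBS, Il12rb2 at 5.65 CPM with IL-27 and 6.90 CPM with PBS, and Il12rb1 at 4.66 CPM with IL-27 and 16.8 CPM with PBS. In the 261 cells that met several gates, Il18r1 was at 5.30 CPM in the IL-27 library and 16.0 CPM in the PBS library, and Il18rap at 0 CPM with IL-27 and 10.7 CPM with PBS.

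T cells with at least 2 UMIs of the NK marker genes Ncr1, Klrb1c and Klre1, a split chosen after the data were seen, had higher levels of all 4 chains than T cells without such a UMI. These 117 cells had 65.1 CPM of Il18rap, 21.1 CPM of Il12rb2, 76.4 CPM of Il18r1 and 24.4 CPM of Il12rb1. The 9319 T cells without such a UMI had 9.98 CPM of Il18rap, 0.701 CPM of Il12rb2, 37.5 CPM of Il18r1 and 7.76 CPM of Il12rb1. Of the 117 cells, 87 were in PBS well 2.

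Trdc-gated T cells split in the same way by a UMI of a gamma receptor constant gene had 78.8 CPM of Il18r1 in the 331 cells with it and 43.7 CPM in the 210 cells without it. Il12rb2 was at 13.6 CPM with it and 6.62 CPM without it, whereas Il18rap was at 17.4 CPM with it and 26.5 CPM without it.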
